A study of Mus musculus with 4 samples.

Results

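The Phf11 genes Phf11a, Phf11b, Phf11c and Phf11d are 4 of 55487 annotated genes in a table of RNA counts from the line LPC-HRas, which the labels describe as unstimulated mouse liver cancer cells. They were taken by symbol from the Ensembl identifiers, and they lie side by side on chromosome 14 of build GRCm38, all on the minus strand. The control group held 2 libraries of LPC-HRas cells labelled control, called control 1 and control 2. The other group held 2 libraries of the same cells overexpressing UBXN9, called UBXN9 1 and UBXN9 2. All 4 libraries thus carry whatever makes the line LPC-HRas, and the labels give neither the promoter of the UBXN9 construct, nor the vector of the controls, nor whether a group came from more than 1 culture. The family was chosen by its higher counts in the UBXN9 libraries, with results of this comparison already known, so its own differences are given as a description, with no test.

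PHF11 proteins are small nuclear proteins with a zinc finger of the PHD class, a fold that many chromatin proteins use to read histone tails. Humans have a single PHF11 gene, which lies beside SETDB2, and the mouse has several tandem copies in the matching place. Human PHF11 has been described as a partner of the NF-kB subunit RELA at cytokine genes in T cells and as a factor that helps resect broken DNA ends coated with RPA. Transcripts of the family are known to respond to interferon.

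Phf11a (ENSMUSG00000044703, chromosome 14, 59276913 to 59297522) has 8 exons, Phf11b (ENSMUSG00000091649, 59320964 to 59341351) has 9, and Phf11d (ENSMUSG00000068245, 59347407 to 59365470) and Phf11c (ENSMUSG00000091144, 59380833 to 59395381) have 10 each in the transcript with the longest coding sequence. All 4 are annotated as protein coding. Their coding sequences are close copies. Phf11a and Phf11b were identical at 97.1% of 828 aligned coding bases, Phf11d and Phf11a at 89.1%, Phf11d and Phf11b at 88.5%, and Phf11c at 83.9% to 84.8% with each of the others. The likeness matters here because a read from a shared stretch cannot be given to a single copy. The stretch of 75 coding bases in which the 4 copies are most alike lies near the end of the reading frame and differs at 1 position, shown in capitals.
Phf11a: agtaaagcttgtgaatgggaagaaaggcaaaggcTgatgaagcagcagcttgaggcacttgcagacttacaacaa
Phf11b: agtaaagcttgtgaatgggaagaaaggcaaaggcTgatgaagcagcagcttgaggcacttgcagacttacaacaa
Phf11c: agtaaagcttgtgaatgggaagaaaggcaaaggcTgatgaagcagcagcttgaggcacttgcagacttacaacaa
Phf11d: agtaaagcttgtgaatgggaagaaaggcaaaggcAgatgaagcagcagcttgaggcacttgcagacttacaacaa
A read inside this stretch could tell Phf11d from the other copies at that single base and could not tell Phf11a, Phf11b and Phf11c apart. The gapless stretch of the same length with the most differences among the 4 copies has 32 such positions, again in capitals.
Phf11a: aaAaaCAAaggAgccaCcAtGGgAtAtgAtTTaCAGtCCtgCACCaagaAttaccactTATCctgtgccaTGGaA
Phf11b: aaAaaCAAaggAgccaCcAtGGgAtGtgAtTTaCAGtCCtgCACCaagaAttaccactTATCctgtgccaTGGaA
Phf11c: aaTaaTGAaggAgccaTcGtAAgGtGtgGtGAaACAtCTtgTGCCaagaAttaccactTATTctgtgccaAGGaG
Phf11d: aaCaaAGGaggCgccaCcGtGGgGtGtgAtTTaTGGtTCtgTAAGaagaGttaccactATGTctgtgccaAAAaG
Here Phf11d and Phf11c each stand apart, while Phf11a and Phf11b still read almost alike. In Phf11d this stretch is at chr14:59356361-59356435 and the more alike one at chr14:59349306-59349380, each within 1 exon.

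Over whole transcripts the shared part was small for stretches as long as a sequencing fragment and larger for short ones. Of all stretches of 100 bases in the annotated transcripts, 8.85% of those in Phf11b were also found in another member, against 6.13% in Phf11a, 5.86% in Phf11c and 3.78% in Phf11d. In numbers these were 96, 77, 197 and 181 stretches, so the shares also depend on transcript length. Those of Phf11d pool its 4 annotated transcripts. With stretches of 50 bases the shares were 38.8%, 32.6%, 10.2% and 7.83% in the same order. Some of the Phf11b sequence also recurs in Gm6904, a further copy at 59244441 to 59260216 that RefSeq lists as a Phf11 pseudogene, so that 13.8% of its stretches of 100 bases occur in some other gene. The plot of shared sequence against stretch length shows Phf11a and Phf11b falling steeply and Phf11c and Phf11d changing less. The read length is not given in the sources used here.

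**Figure D1:**
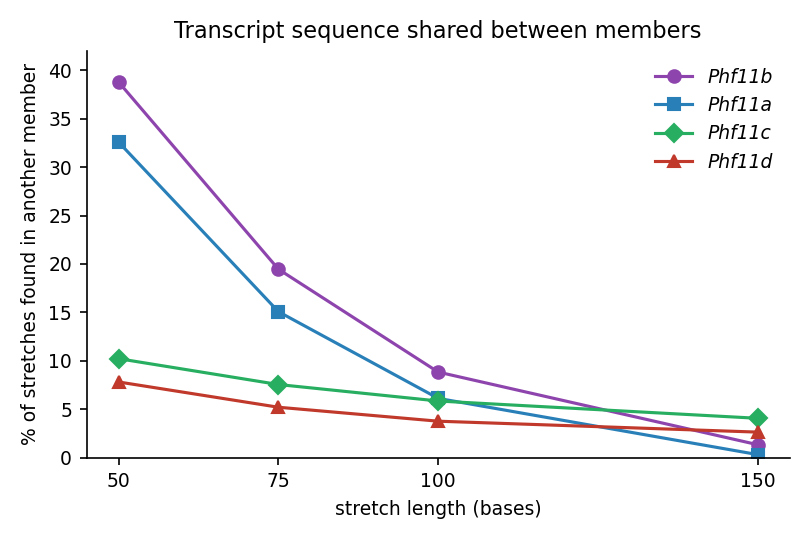
Percent of all stretches of 50, 75, 100 or 150 bases (horizontal axis) in the annotated transcripts of each gene that also occur in a transcript of another of the 4 members (vertical axis). Phf11b is highest at 50 bases, with 38.8%, and at 150 bases all 4 lie at or below 4.08%.

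The start regions of Phf11a, Phf11b and Phf11d hold a common element near their RefSeq starts (GRCm38.p6). It is built from GAAA, the core that interferon regulatory factors (IRFs) bind as repeats. The motif GAAANNGAAA, the core of the interferon-stimulated response element, occurs on either strand in 3.44% of 32851 RefSeq windows from 250 bases before to 50 after a start. It occurs in those of Phf11a and Phf11b. In Phf11d the GAAA cores have 1 base between them, GAAANGAAA, a form searched for after the sequences had been seen and present in 3.17% of windows. The motifs were counted separately, and a window may hold both. The 30 bases around each match are shown because they line up between the copies, with the match in capitals.
Phf11a: cacatttagaGAAAAAGAAActagaaccta
Phf11b: cacatttagaGAAAAAGAAActagaaacta
Phf11d: cacatttcggGAAACGAAActaggagctag
These sites are at chr14:59297532-59297561, chr14:59341361-59341390 and chr14:59365475-59365504, all read on the minus strand. Counted from the start on which each window is built, the match begins 29 bases upstream in Phf11a, 50 in Phf11b and 4 in Phf11d, where it runs across the start. The RefSeq gene bounds of Phf11a and Phf11b reach further upstream, to 59297564 and 59341388, so the matches of these 2 genes lie inside those bounds. Among 44 interferon-stimulated genes with a window, 20 held GAAANNGAAA and 11 held GAAANGAAA. A gene was counted if any of its windows matched, so these counts are not on the same scale as the shares of windows. The gamma-activated site TTCNNNGAA, found in 8.3% of windows, matched no member. The window of Phf11c held none of the 3 motifs, and neither did that of Setdb2. That of Phf11c is built on a RefSeq start at 59393512, and sequence around the GENCODE end of the gene at 59395381 was not searched.

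The 250 bases before the starts of Phf11b (chr14:59341331-59341580) and Phf11d (chr14:59365491-59365740) are given below because these 2 genes supplied most of the reads.
Phf11b: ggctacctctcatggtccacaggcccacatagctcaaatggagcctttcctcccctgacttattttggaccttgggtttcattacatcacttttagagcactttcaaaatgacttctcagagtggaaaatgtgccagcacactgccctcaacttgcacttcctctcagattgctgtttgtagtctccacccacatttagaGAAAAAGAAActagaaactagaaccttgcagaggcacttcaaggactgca
Phf11d: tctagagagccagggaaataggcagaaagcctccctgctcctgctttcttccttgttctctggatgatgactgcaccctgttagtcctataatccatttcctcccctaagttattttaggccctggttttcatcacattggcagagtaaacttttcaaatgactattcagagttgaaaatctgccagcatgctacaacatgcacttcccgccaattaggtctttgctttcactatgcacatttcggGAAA
Aligned end to end, these stretches were identical at 46.7% of columns. Those of Phf11a and Phf11b were identical at 83.8%, with an unbroken run of 123 bases, and those of Phf11a and Phf11d at 54.0%. Phf11c was identical at 45.6% to 46.6% of columns with the others. Columns with a gap count as not identical: Phf11b and Phf11d had 142 identical of 304 columns, and Phf11b and Phf11c 130 of 279. The element shown above lies at different distances from the starts of Phf11b and Phf11d, and such a shift adds gap columns. These shares therefore do not show that Phf11b and Phf11d are as unlike as either is from Phf11c.

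The libraries held 21814969 to 26292686 estimated counts each. Levels are CPM, which divide each count by its library's total after TMM scaling in edgeR. Aspscr1, which encodes UBXN9, stood at 104 ± 16.3 CPM in control and 385 ± 8.21 CPM with UBXN9 overexpressed (SD, n = 2), in the direction of the labels. Of 13230 genes tested with edgeR, 7.44% changed at an adjusted p under 0.05, 5.06% higher and 2.38% lower. The sources do not say that libraries of a group were separate cultures, so each p-value reflects only how far these libraries spread, which may be technical. In bulk RNA, more cells that express a gene and more RNA per cell cannot be told apart.

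All 4 members were higher in both UBXN9 libraries than in both controls, as were 25.1% of all genes tested, and Phf11d carried most of the family's RNA in every library. Phf11d had 81.6 and 57.4 counts in control 1 and 2 and 1767 and 2312 in UBXN9 1 and 2. On the CPM scale it stood at 2.86 ± 0.362 in control and 87.5 ± 0.555 in UBXN9-overexpressing cells (SD, n = 2). The UBXN9 libraries agreed closely with each other and did not overlap the controls. The fitted log2 difference was 4.93 with an SE of 0.20, which is 30.5-fold.

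Phf11b, the copy upstream of Phf11a in the array, was near the detection limit in control cells. It had 5 and 4 counts in control 1 and 2 and 283 and 402 in UBXN9 1 and 2. Its level was 0.186 ± 0.00658 CPM in control and 14.6 ± 0.733 CPM with UBXN9 overexpressed (SD, n = 2), again without overlap. The ratio of the summed counts was 78.8, with an exact Clopper-Pearson 95% interval of 41.3 to 173 that covers counting error only. The fitted log2 difference was 6.25 with an SE of 0.33.

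Phf11a had 0 and 1 count in the controls against 27.3 and 53.3 counts in UBXN9 1 and 2, which is 1.36 and 2.01 CPM in the UBXN9 libraries. With 1 control count in all, the ratio was 82.8 with an interval of 14.4 to 3311, so its size is poorly fixed. Leaving out control 2, the library with that count, moved the fitted log2 difference from 6.01 to 8.35, and leaving out control 1 moved it to 5.04. Phf11c had 5.25 and 0 counts in the controls against 7.18 and 17.6 in UBXN9 1 and 2, or 0.2, 0, 0.357 and 0.663 CPM. Its UBXN9 libraries lay above the controls by a small margin, the ratio was 5.18 (1.95 to 17.3), and it did not pass the filter on low counts.

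The filter kept 3 of the 4 members, and all 3 were among the 5.06% of genes called higher. Phf11a and Phf11b passed it only through their UBXN9 libraries, so they had to differ. Because the family was chosen with this comparison known, nothing is read from these counts.

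**Figure D2:**
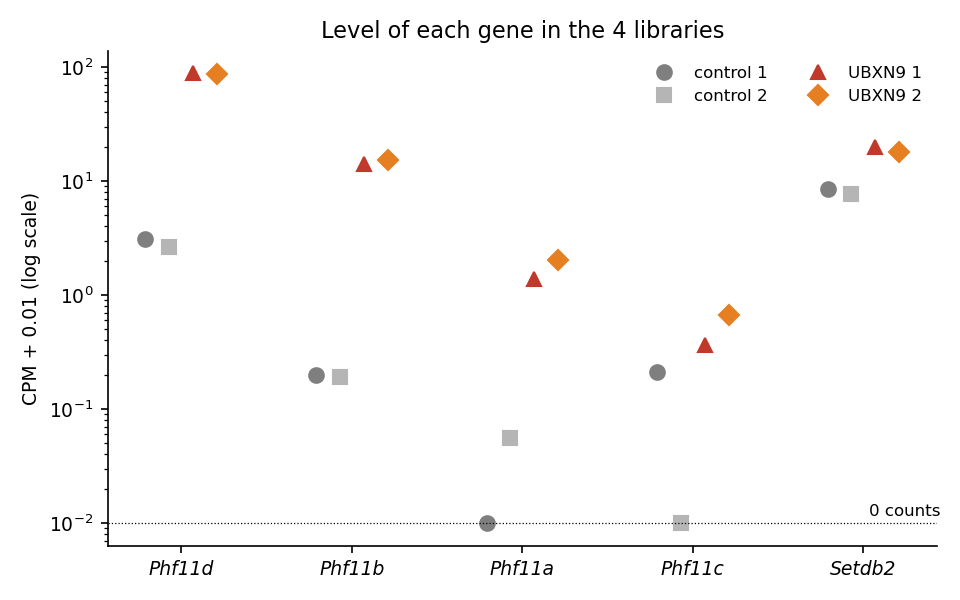
Level of the 4 Phf11 genes and of the neighbouring Setdb2 in each library, as CPM plus 0.01 on a log axis, 1 point per library. Phf11d lies at 3.11 and 2.6 CPM in the controls and at 87.9 and 87.1 CPM in the UBXN9 libraries, and the points on the dotted line are libraries with 0 counts.

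Genes of different length are compared here as CPM per kb of merged exons. In the UBXN9 libraries the order was Phf11d with 19.5 and 19.4, Phf11b with 11.9 and 12.8, Phf11a with 1.0 and 1.48, and Phf11c with 0.103 and 0.192 CPM per kb. No neighbours in this order overlapped. In the controls Phf11d had 0.692 and 0.578 and Phf11b 0.161 and 0.153 CPM per kb, while Phf11a (0 and 0.0335) and Phf11c (0.0579 and 0) overlapped each other. Phf11d has 4 annotated transcripts, and with the length of its longest in place of all merged exons its mean level in UBXN9-overexpressing cells was 29.4 instead of 19.5 CPM per kb.

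Phf11d was the main member in all 4 libraries, and the control libraries, with few family counts, give its share only roughly. Phf11d took 89.1% of 92 family counts in control 1 (exact 95% interval 80.9 to 94.7) and 91.9% of 62 in control 2 (82.2 to 97.3). It took 84.8% of 2084 in UBXN9 1 (83.2 to 86.3) and 83.0% of 2785 in UBXN9 2 (81.6 to 84.4). These intervals overlap between groups. Phf11b took 5.43% (1.79 to 12.2) and 6.45% (1.79 to 15.7) in the controls against 13.6% (12.1 to 15.1) and 14.4% (13.1 to 15.8) in the UBXN9 libraries. The interval of UBXN9 1 overlapped those of both controls and that of UBXN9 2 only that of control 2. Over the summed counts, the ratio of UBXN9 to control was 78.8 (41.3 to 173) for Phf11b, with 9 control counts, and 30.4 (25.6 to 36.2) for Phf11d. Like those of the shares, these intervals cover counting error only and leave out how reads were divided between copies. They are not read as a test of a difference between the 2 genes. Phf11c took 0.336% and 0.646% in the UBXN9 libraries, below the 5.43% of control 1, where it had 5 counts, and not below the 0 of control 2.

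**Figure D3:**
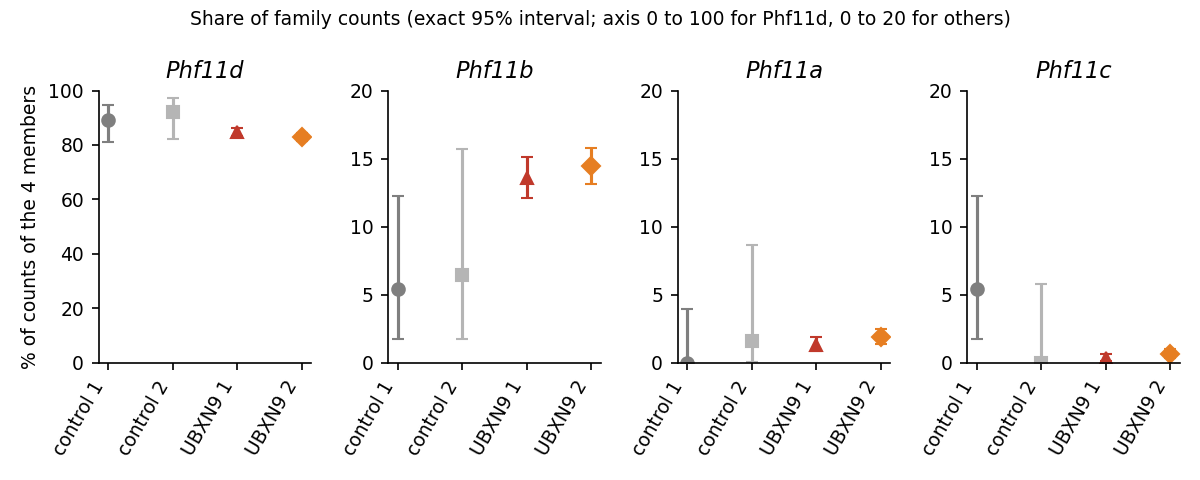
Percent of the counts of the 4 Phf11 genes that fell on each gene, by library, with exact 95% intervals for counting error; the axis runs to 100 for Phf11d and to 20 for the others. The wide control bars come from family totals of 92 and 62 counts, against 2084 and 2785 in the UBXN9 libraries.

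The deposited counts themselves show that reads were divided at this locus. In the UBXN9 libraries the values of all 4 members, of Gm6904 and of Setdb2 were fractions. Added over these 6 genes they came to 315.01, 231, 2483.99 and 3260 in control 1, control 2, UBXN9 1 and UBXN9 2, each within 0.01 of a whole number, while the 4 members alone missed a whole number by 0.11 to 0.36. In control 2, where only Phf11d and Setdb2 held fractions, the 2 genes added up to 226. In control 1 Phf11c, Phf11d and Setdb2 added up to 310.01. Setdb2 shares no stretch of 50 bases with a member in the GENCODE transcripts. RefSeq lists a read-through gene, Gm45935 or Setdb2-phf11c, that spans both Setdb2 and Phf11c. Whether it was in the annotation the authors used was not tested.

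A sum over the copies does not depend on how the counted reads were divided among them. The sum of the 4 members still depends on the split with Gm6904 and Setdb2. Whether some shared reads were left out of the counts is not given in the sources used here. The 4 members together stood at 3.5 and 2.83 CPM in control 1 and 2 and at 104 and 105 CPM in UBXN9 1 and 2, a ratio of group means of 33.0. With Gm6904 and Setdb2 included, the 6 genes stood at 11.2 ± 1.09 CPM in control and 123 ± 0.516 CPM with UBXN9 overexpressed (SD, n = 2), a ratio of 11.0. The difference between the groups thus did not rest on the split of the counted reads among these 6 genes. How far the values of single copies rest on it was not tested.

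The genes around the array that could be tested had smaller differences than the members, which were chosen for their higher counts. Within 1 Mb on either side, 30 other genes are annotated and 6 were deep enough to test. Of these 1 rose and 0 fell at an adjusted p under 0.05, against 5.06% higher among all genes tested. The genes not tested had at most 22 counts in any library. Setdb2, which encodes a relative of the histone H3 lysine methyltransferase SETDB1, was the gene that rose. It had 223 and 169 counts in control 1 and 2 and 396 and 474 in UBXN9 1 and 2. Its level went from 8.08 ± 0.61 to 18.8 ± 1.29 CPM (SD, n = 2), a log2 difference of 1.21 with an SE of 0.21 (edgeR adjusted p = 0.017). The call was lost without control 1 (adjusted p = 0.0566) and without control 2 (adjusted p = 0.171) and held in the other alternatives, down to 1.06e-05 without UBXN9 2. Its log2 difference ran from 1.12 to 1.29 over these fits, and some of its counts were divided with the Phf11 genes.

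The other tested neighbours had small differences that did not pass. Rcbtb1, on the far side of Phf11a, had 34.0 ± 3.52 CPM in control and 32.2 ± 7.32 CPM with UBXN9 overexpressed (SD, n = 2), with overlapping groups. Cab39l, whose start faces that of Setdb2, had a log2 difference of 0.22 with an SE of 0.20, although both UBXN9 libraries lay above both controls. Cdadc1 had -0.024, Gm49336 -0.16 and Mtmr6, a phosphoinositide phosphatase, -0.36, with adjusted p values from edgeR of 0.978, 0.638 and 0.366. Gm6904 itself had no count in either control, 3.02 in UBXN9 1 and 1.01 in UBXN9 2.

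**Figure D4:**
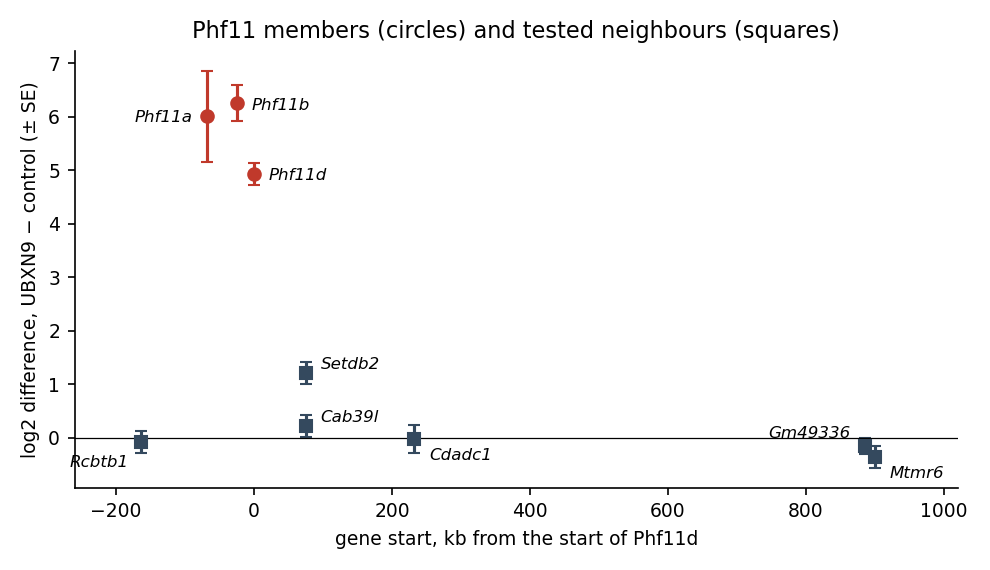
Log2 difference of UBXN9 against control libraries with its SE (vertical axis) by the distance of the gene's start from that of Phf11d in kb (horizontal axis), for the 3 Phf11 genes and 6 neighbours that passed the filter. The Phf11 genes lie between 4.93 and 6.25, Setdb2 at 1.21 and the other 5 neighbours between -0.36 and 0.22.

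Other genes of the PHD finger class were called higher about as often as genes at large. Of 40 on the list 39 were tested, and 2 rose, or 5.13% against 5.06% of all genes tested, and 0 fell. The median log2 difference was -0.12 against -0.0056 over all genes tested. By DESeq2 and by limma-voom 2 were called as well, and by edgeR 6 had an unadjusted p under 0.05, 4 higher and 2 lower. The list's median was -0.075 without UBXN9 1 and -0.24 without UBXN9 2, against -0.0098 and -0.017 over all genes tested. Calls on the list and calls over all genes both became more frequent in these 2 fits. The 2 that rose with all libraries belong to the SP100 family of nuclear body proteins, which are known interferon-responsive genes. Sp110 was listed at 0 in both controls and had 81.9 and 107 counts in UBXN9 1 and 2, at least 65.2-fold higher against a floor of 3 counts over the controls. Sp140 went from 0.181 ± 0.125 to 3.19 ± 0.387 CPM (SD, n = 2), a log2 difference of 4.08 with an SE of 0.53. Sp110 and Sp140 passed the filter only through their UBXN9 libraries, so they had to differ, and nothing is read from their calls. Among the rest, Trim28, an abundant transcriptional corepressor, had 458 CPM in control and 409 CPM with UBXN9 overexpressed.

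Genes known to respond to interferon rose in the same libraries. On a list of interferon-stimulated genes that leaves out the Phf11 family, 57 were tested, and 54 rose and 0 fell by edgeR, against 5.06% higher among all genes. Their log2 differences ran from 0.71 to 5.80 with a median of 2.53. DESeq2 called 55 and limma-voom 53. Sp100, Parp12, Gbp2 and Zbp1 had the smallest p. Sp100, a nuclear body protein, had a log2 difference of 5.80 and an SE of 0.27. Parp12, an ADP-ribosyltransferase, had 4.67, the GTPase Gbp2 had 4.04, and Zbp1, which binds left-handed nucleic acid, had 4.58, each with an edgeR adjusted p of 0.00022.

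Of 19 genes of interferon signalling 11 rose and 0 fell by edgeR, with a median log2 difference of 0.79, and 13 had an unadjusted p under 0.05, 12 higher and 1 lower. Irf7, an IRF, rose from 101 ± 1.52 to 632 ± 55.6 CPM and Irf5 from 5.88 ± 1.07 to 37.7 ± 1.99 CPM (SD, n = 2). Their log2 differences were 2.64 and 2.68, and that of Usp18, which restrains the interferon receptor, was 2.71.

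**Figure D5:**
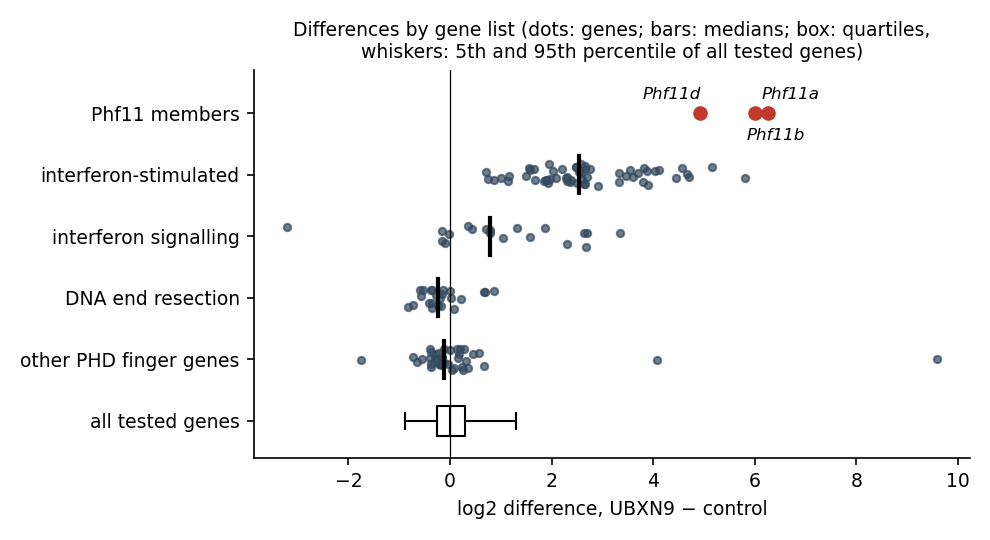
Log2 differences of UBXN9 against control (horizontal axis) for the tested genes of 4 lists, the 3 tested Phf11 genes and, as a box with the quartiles and whiskers at the 5th and 95th percentiles, all 13230 genes tested. Medians are 2.53 for interferon-stimulated genes and -0.12 for other PHD finger genes, whose highest dot is Sp110, listed at 0 in the controls, so that its fitted position depends on the fit.

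Genes of the processes in which human PHF11 has been described were read against the 7.44% called among all genes tested. Of 23 genes of DNA end resection none was called by edgeR, DESeq2 or limma-voom, 5 had an unadjusted p under 0.05 by edgeR (1 higher, 4 lower), and the median log2 difference was -0.24. Exo1, the exonuclease of long-range resection, had 42.2 ± 0.213 CPM in control and 28.5 ± 4.38 CPM with UBXN9 overexpressed (SD, n = 2), with an edgeR adjusted p of 0.121. Brca1 had 24.0 ± 4.8 and 14.4 ± 4.07 CPM (SD, n = 2), with an edgeR adjusted p of 0.164. The list's median log2 difference was -0.23 without UBXN9 1 and -0.42 without UBXN9 2, against -0.0098 and -0.017 over all genes tested. Calls on the list and calls over all genes both became more frequent with either UBXN9 library left out.

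Of 11 NF-kB genes 1 rose and 0 fell by edgeR. The median log2 difference was 0.33 and 10 of the 11 differences were positive. In 9 genes both UBXN9 libraries lay above both controls, against 25.1% of all genes tested. Relb rose from 73.3 ± 2.3 to 117 ± 1.4 CPM (SD, n = 2; log2 difference 0.67, SE 0.15, edgeR adjusted p = 0.0407), and the call was lost without control 1 (adjusted p = 0.44), without control 2 (0.363), with a replicate block (0.17) and with library size alone (0.0655). Rela itself had 84.0 CPM in control and 105 CPM with UBXN9 overexpressed, with an edgeR adjusted p of 0.26. Of 6 T helper cytokine genes only Tnf was deep enough to test. It rose from 0.808 to 2.97 CPM (log2 difference 1.87, SE 0.37, edgeR adjusted p = 0.0282), with adjusted p values of 0.112 and 0.146 without control 1 and control 2. Il2, Ifng, Il4, Il5 and Il13 had at most 1.01 counts in any library.

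The genes whose pattern over the 4 libraries was nearest to Phf11d, by Euclidean distance of log2 CPM centred on each gene's mean, were Ifit1bl1 (distance 0.128), Gbp9 (0.212), Gm11427 (0.305), Trim30c (0.335) and Hsf2bp (0.353). Ifit1bl1 had 0.496 and 0.453 CPM in control 1 and 2, against 16.1 and 16.9 CPM in UBXN9 1 and 2. Nearest to Phf11b were Sp110 (0.173), ENSMUSG00000118590 (0.191), Sp100 (0.203), Gm4841 (0.23) and Ifi206 (0.369), and nearest to Phf11a were Xdh (0.467), Gm43802 (0.494), Gm28037 (0.499), Tnip3 (0.573) and Rab32 (0.576). With 2 groups of 2 libraries the distance is set mostly by the size of the group difference in these log2 CPM. They include a prior count of 2, which shrinks the differences of genes with few counts. The distance thus also depends on a gene's level and does not follow the fitted differences. Xdh, nearest to Phf11a, had a fitted log2 difference of 4.07, against 6.01 for Phf11a. By the same measure Phf11b was 37th and Phf11a 62nd among the genes nearest to Phf11d.

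Phf11 genes are also known from lymphocytes, so markers of immune cells were read in the same libraries. The 9 B cell markers summed to 0.0763 and 0.453 CPM in control 1 and 2 and to 6.27 and 8.1 CPM in UBXN9 1 and 2. In the UBXN9 libraries nearly all of this came from Ighm and Pax5. Both were called higher by edgeR but passed the filter only through these libraries, so they had to differ. Their part in the Phf11 differences was not tested. The other 7 had under 10 counts in every library. Of 9 T and NK cell markers Cd3e, Cd3g, Cd8a, Cd2 and Ncr1 were at 0 in all libraries, and Lck was called higher, with sums of 5.19 and 4.67 CPM in the controls against 10.8 and 9.57 CPM with UBXN9. Ptprc, the pan-leukocyte marker, had no count in either control, 3 in UBXN9 1 and 1 in UBXN9 2, and the 9 myeloid markers summed to 6.74 and 6.85 against 12.3 and 10.0 CPM, with Lyz2 called higher. Of 8 hepatocyte markers Alb, Serpina1a and Fgb were at 0 in all libraries, and Trf, which encodes transferrin, fell from 1033 to 266 CPM (edgeR adjusted p = 0.00234). Of 8 markers of liver progenitors and bile duct, Sox9 had 3846 to 5524 counts and Spp1 48441 to 79326. By edgeR 3 fell: Krt18 from 2.83 to 0.231 CPM, Krt19 from 8.72 to 2.72 CPM and Cd24a from 57.0 to 27.5 CPM. Krt18 passed the filter only through the controls, so it had to differ. Of 8 fibroblast and stellate cell markers 2 rose by edgeR, Col1a1 from 27.5 to 127 CPM and Acta2 from 17.7 to 42.7 CPM. The others were not called. Col1a2 was lower in both UBXN9 libraries (0.57 CPM in control, 0.332 with UBXN9), and Dcn and Pdgfrb were higher in both. Col3a1 and Des overlapped between the groups, and Lrat had at most 1 count in any library. The part of these markers in the Phf11 differences was not tested.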

How the data were processed

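RNA from 2 control and 2 UBXN9-overexpressing libraries was prepared with the TruSeq RNA v2 kit, which does not mark strand, per the labels' protocols. The authors deposited estimated counts of each gene, whose totals differ between libraries; HISAT2 2.1.0, HTSeq and GRCm38.p6 are named in the submitters' processing notes. The handling of shared reads is not given in the sources used here, and 10.1% to 12.1% of values per library are fractions. The 241 unannotated loci, 0.302% to 0.535% of counts, were left out and values were rounded to whole counts. Depth was 21814969 to 26292686 counts.

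Groups were compared with edgeR 4.0.16 (TMM, filterByExpr, quasi-likelihood F test, two-sided, Benjamini-Hochberg adjustment over 13230 genes, threshold 0.05) in R 4.3.3, checked on simulated data. Each SE of an edgeR log2 difference was derived as its absolute value divided by the square root of its F statistic. Positions and lengths came from GENCODE M21 (GRCm38), promoters from RefSeq (GRCm38.p6), in which all 4 members matched. Coding sequences were aligned with mafft 7.526. The members and lists were chosen with earlier results of these data known. Named genes were the members, Aspscr1, tested neighbours within 1 Mb, up to 4 called members of each list by p (or 2 where none was called), and the 5 genes nearest in pattern to each tested member; Gm6904, Trim28, Rela and marker genes were named after their values were seen. Some genes that this rule names are not reported here. Alternatives were RLE scaling, library size alone, no filter, DESeq2 1.42.0, limma-voom (limma 3.58.1), a replicate block, and leaving out each library. Fits that leave a group with a single library take its spread from the other group. Intervals cover counting error only, and an exact two-sided permutation test of 2 against 2 libraries cannot go below p = 0.333.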

Additional observations from a re-analysis of the deposited data

How the results depend on the processing

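The differences of Phf11a, Phf11b and Phf11d stayed positive in all alternatives, and Phf11c was too shallow to enter the filtered fits. With a library left out, the log2 difference ran from 5.04 to 8.35 for Phf11a, 6.20 to 6.31 for Phf11b, 4.80 to 5.07 for Phf11d, 4.90 to 5.21 for the 4 members summed and 3.36 to 3.56 with Gm6904 and Setdb2 added. By limma-voom it was 5.55 for Phf11a and 6.15 for Phf11b, and with library size alone 6.17 for Phf11b. The UBXN9 level of Phf11d was 18.9 CPM per kb with library size alone and 29.4 with the longest transcript as its length. Shares of sequence found in another member were, for stretches of 50, 75 and 150 bases, 32.6%, 15.1% and 0.332% in Phf11a, 38.8%, 19.5% and 1.35% in Phf11b, 10.2%, 7.56% and 4.08% in Phf11c, and 7.83%, 5.22% and 2.65% in Phf11d.

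Called genes numbered 1827 without a filter, which tested more genes, and 508 to 2782 with a library left out. Leaving out control 2 gave the lowest count and leaving out UBXN9 2 the highest, and the count was 2561 without UBXN9 1. Counts with a library left out ran from 2 to 11 for other PHD finger genes, 0 to 8 for DNA end resection, 0 to 2 for NF-kB genes, and 0 to 1 for both T helper cytokines and neighbours. Without a filter 4 PHD finger genes and 1 resection gene were called, and no NF-kB gene was called (0) with library size alone. The log2 difference of Cdadc1 ran from -0.23 to 0.16 and that of Rcbtb1 from -0.33 to 0.14 with a library left out (0.027 for Rcbtb1 without control 1), none of them called. The cause was not tested.

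Same-numbered libraries did not deviate together (correlation -0.373 across genes), and the number was not used as a pairing in the main fit. A single correlation cannot show whether same-numbered libraries were prepared together. The replicate block gave 932 calls and lost the NF-kB call (0), and Phf11d had a log2 difference of 4.94. A block with crossed numbers, chosen after that correlation was seen, gave 3135 calls, with 11 PHD finger, 7 resection and 2 NF-kB genes. Depth limits Phf11a and Phf11c most, with 1 and 5 control counts.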
